A study of Mus musculus with 4 samples.

Results

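The regulators described here are the peroxisome proliferator-activated receptors Ppara, Ppard and Pparg, their retinoid X receptor partners Rxra and Rxrg, the estrogen-related receptors Esrra, Esrrb and Esrrg, and the coactivators Ppargc1a and Ppargc1b, which encode PGC-1alpha and PGC-1beta. They were taken by gene symbol from the platform annotation, and all 10 had a probe, with 11 probes in all. They are 10 of 15955 genes tested and their probes 11 of 23473 gene probes. RNA came from ventricular muscle of 129SV male mice, 2 samples with the wild-type gene and 2 Trpc6-/- samples lacking Trpc6, a receptor-operated calcium-permeable channel, and each sample was read on 1 array. The sources used here do not give the age of the mice, how the deletion was made, or whether a sample is 1 animal or a pool. The replicate spread may therefore be technical, and the p-values measure only that spread.

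PPARs are ligand-activated transcription factors that bind fatty acids and their derivatives and act on DNA as heterodimers with RXR. In the heart PPARalpha is known for driving genes of fatty acid uptake, mitochondrial import and beta-oxidation. ERRs are orphan receptors, active without a known natural hormone, that bind an extended half-site as monomers or dimers and drive genes of the respiratory chain and the citric acid cycle. PGC-1 proteins bind no DNA themselves and raise the activity of both receptor families.

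Among the 10 genes as tested, Ppara had the largest difference, with an estimated level 1.24-fold that of wild type in the knockout, and Ppargc1a was also above wild type on both of its probes. Most known target genes of the PPARs lay on the other side, with 24 of 27 measured below wild type against 48.9% of all genes. It was 14 of 27 when the local background was subtracted. Fatty acid genes were already known to be lower on these arrays when the targets were chosen, so their direction is not independent evidence. Esrra, Rxrg, Pparg and Ppargc1b varied between arrays of 1 genotype about as much as, or more than, between genotypes. Ppard, Rxra and Esrrb were close to background, with point estimates within 1% of wild type. In limma, 0 of the 10 members had an adjusted p under 0.05, as was so for 0% of all 15955 genes. At an unadjusted p under 0.05 there was 1 member higher and 0 lower, against 3.67% higher and 3.08% lower of all genes.

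Trpc6 itself read 80.5 and 89.2 units in the wild-type samples against 84.1 and 82.6 in the Trpc6-/- samples, below the background limit on all 4 arrays, so the genotype labels could not be checked by it. A spot counted as above background when it exceeded the 95th percentile of its array's blank and negative control spots, a limit of 80.8 and 91.5 units for the wild-type arrays, and 85.5 and 83.3 units for the knockout arrays. By that rule 76.3% to 83.2% of gene probes were above background. Markers of ventricular cardiomyocytes were bright, with 9 of 9 above background on all arrays and a summed intensity in the authors' table of 191500 to 204400 units in wild type and 199500 to 202600 units in the knockout. Red cell genes stood apart on the first wild-type array. Their sum over 5 genes was 930 units there, 2435 units on the second and 3177 and 3454 units in the knockout. All 5 were higher in the knockout without overlap, as were 19.4% of all genes, and their median log2 fold change was 0.94. The fibroblast sum over 6 genes was 3061 to 3484 units in wild type and 2424 to 2784 units in the knockout, and 77.5% of it over the 4 arrays was Dcn. The atrial sum over 4 genes was 2869 to 3262 units in wild type and 3949 to 6113 units in the knockout, and 96.8% of it was Nppa, a natriuretic peptide gene that stressed ventricle also expresses. The other 3 atrial markers had log2 fold changes of -0.12 for Bmp10, -0.45 for Myl4 and -0.00031 for Myl7. Endothelial, macrophage and skeletal muscle sums overlapped between the groups. The part of red cells or fibroblasts in the differences given below was not tested. In tissue RNA, fewer cells of a type and less RNA per cell cannot be told apart. All 11 member probes were above background on all 4 arrays. The precision of every value is limited by the number of arrays, and 0.333 is the smallest p that an exact permutation test can reach with 2 samples in each group.

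Values below are spot medians in scanner units, as deposited, or log2 intensities after normalization, with group means ± SD over n = 2. Fold changes are differences of group means of those log2 values, knockout minus wild type, ± limma standard error, with a 95% interval. An offset of 50 units in the background step shrinks fold changes of dim probes.

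**Figure D1:**
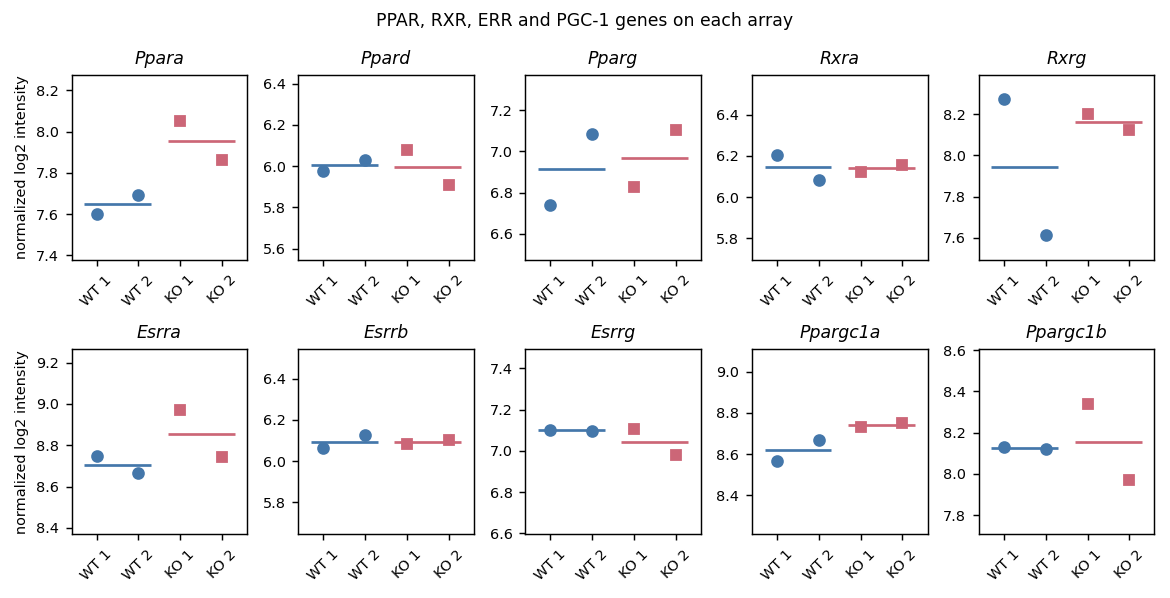
Normalized log2 intensity (vertical axis) of each of the 10 regulators on the 2 wild-type arrays (WT, circles) and the 2 Trpc6 knockout arrays (KO, squares), with horizontal lines at the group means and the same axis span in every panel. Ppara and Ppargc1a are the panels in which both knockout arrays lie above both wild-type arrays.

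Ppara, the PPAR most tied to fatty acid oxidation in heart and liver, gave spot medians of 219.7 and 254 units in the wild-type samples against 286 and 255 in the Trpc6-/- samples. The second wild-type and the second knockout spot were nearly equal before normalization, on arrays whose background limits were 91.5 and 83.3 units. Normalized log2 intensities were 7.60 and 7.69 in the wild-type samples against 8.05 and 7.86 in the Trpc6-/- samples, or 7.65 ± 0.07 and 7.96 ± 0.14. The groups did not overlap, and the first knockout array was the highest. Its log2 fold change was 0.31 ± 0.08, or 23.9% above wild type with an interval of 6.96% to 43.6%. The unadjusted limma p was 0.0144 and the adjusted p was 0.727. Of all genes tested, 301 had a smaller p, and 1.47% had a fold change at least as large in either direction. In the authors' deposited table Ppara was 138.7 and 134 units in the wild-type samples against 193 and 178 in the Trpc6-/- samples, so that the ratio of the knockout mean to the wild-type mean was 1.36. Without the first knockout array the log2 fold change was 0.21, and over all 16 alternatives it lay between 0.21 and 0.50 with an unadjusted p under 0.05 in 15 of them. In the authors' table that p was 0.0601. Some of the 16 alternatives, named at the end, cannot change a fold change.

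The sequence before the Ppara transcription start is shown because Ppara had the smallest p among the members. It comes from RefSeq in build GRCm38.p6, as do the other promoters below, and each is 250 bases long and ends at the base before the start. Promoter entries were matched by symbol for 9 of the 10 members, 17 entries in all. Both strands were searched for AGGTCA, the half-site of nuclear receptors, for the direct repeat bound by PPAR with RXR, which is AGGTCA, any 1 base and AGGTCA again, for TCAAGGTCA, the ERR element, and for TGACGT, part of a cAMP response element. AGGTCA is contained in both longer receptor motifs, so these overlap. Neither longer motif was found in a member's entry. Exact matches of them are in 0.0335% and 0.387% of all promoters, so their absence from 17 entries tells little. Capitals mark matches, and the Ppara window holds none of the 4.
Ppara promoter, chr15:85735526-85735775, plus strand: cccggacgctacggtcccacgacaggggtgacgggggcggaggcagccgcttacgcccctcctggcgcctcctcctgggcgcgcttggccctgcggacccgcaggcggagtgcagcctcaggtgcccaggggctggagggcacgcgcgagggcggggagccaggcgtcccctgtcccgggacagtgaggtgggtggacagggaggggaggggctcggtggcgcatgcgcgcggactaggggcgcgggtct

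Ppard, the PPAR found in most tissues, read 88.7 and 101 units in the wild-type samples against 95.8 and 88.0 in the Trpc6-/- samples. These readings were 4.64 to 10.3 units above the background limit. Normalized values were 5.98 and 6.03 in the wild-type samples against 6.08 and 5.91 in the Trpc6-/- samples, with the knockout arrays on either side of both wild-type arrays. The fold change on the log2 scale was -0.01 ± 0.07, with an interval of -12.7% to 12.9%, an unadjusted p of 0.887 and an adjusted p of 0.989 in limma.

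Pparg, the PPAR of adipocytes, which is also found in endothelial cells and macrophages, read 133 and 177 units in the wild-type samples against 139 and 163 in the Trpc6-/- samples. Normalized values were 6.74 and 7.08 in the wild-type samples against 6.83 and 7.10 in the Trpc6-/- samples. Both genotypes thus had 1 low and 1 high array, and the low and the high values were close to each other across genotypes. This gave a log2 fold change of 0.05 ± 0.15, with an interval of -21.6% to 37.4% and adjusted p = 0.966 in limma. Without the first wild-type array it was -0.12, and without the second knockout array -0.08. With the second wild-type array left out it was 0.23, and with the first knockout array left out it was 0.19. The white adipocyte sum over 6 genes was 64.9 to 80.0 units in wild type and 63.0 to 66.3 units in the knockout in the authors' table, with Lep below background on all arrays and Adipoq listed at no more than 6.9 units. Of 4 brown fat markers, Elovl3 and Dio2 were below background on all arrays, and Cidea was 314 and 244 units in the wild-type samples against 305 and 229 in the Trpc6-/- samples, highest on the arrays where Pparg was lowest. Cidea made up 94.2% of the brown fat sum. The part of fat cells in the Pparg values was not tested.

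Rxra, the RXR of most tissues including the ventricle, read 99.4 and 104 units in the wild-type samples against 97.7 and 98.7 in the Trpc6-/- samples, 12.2 to 18.6 units above the limits. Its normalized values of 6.20 and 6.09 in wild type enclosed those of 6.12 and 6.16 in the knockout. On the log2 scale the fold change was -0.0049 ± 0.055, with an interval of -9.94% to 10.3% on a scale that the offset compresses. The authors' table gave 20.6 and 13 units in the wild-type samples against 14.1 and 17.8 in the Trpc6-/- samples, and the ratio was 0.949.

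Rxrg, the RXR of skeletal and cardiac muscle, differed most between arrays of 1 genotype. Its spot read 335 and 241 units in the wild-type samples against 313 and 301 in the Trpc6-/- samples. Normalized values were 8.27 and 7.61 in the wild-type samples against 8.20 and 8.12 in the Trpc6-/- samples, so that the second wild-type array was low and the other 3 lay within 0.15 log2 units. The log2 fold change was 0.22 ± 0.23, with an interval of -23.2% to 76.3% and adjusted p = 0.889 in limma. Without the second wild-type array it was -0.11. Without the first wild-type array it was 0.55, with an unadjusted p of 5.88e-04 and an adjusted p of 0.142. The sign of the Rxrg difference therefore rested on 1 array. After subtraction of the local background it was -0.52. The local background beside the spot read 191 and 116 units in the wild-type samples against 269 and 203 in the Trpc6-/- samples, lowest on the array where the spot was lowest, and its part in the Rxrg values was not tested. One of the 2 Rxrg promoter entries holds a half-site, and it is shown as an example of a receptor gene with a receptor motif near its start. AGGTCA was present in 4 of 17 member entries, or 23.5%, against 14% of all 32851 promoters of the same length.
Rxrg promoter, chr1:167618015-167618264, plus strand: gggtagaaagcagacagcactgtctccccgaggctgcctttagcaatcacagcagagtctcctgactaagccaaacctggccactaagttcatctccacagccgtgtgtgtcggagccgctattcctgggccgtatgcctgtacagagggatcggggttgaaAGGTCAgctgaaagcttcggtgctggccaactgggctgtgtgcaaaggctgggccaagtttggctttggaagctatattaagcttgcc

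Esrra, the ERR known to work with PGC-1alpha on respiratory chain genes, read 453 and 466 units in the wild-type samples against 515 and 445 in the Trpc6-/- samples. Normalized values were 8.75 and 8.66 in the wild-type samples against 8.97 and 8.74 in the Trpc6-/- samples. The second knockout array lay just inside the wild-type range and the first stood above it. Its log2 fold change was 0.15 ± 0.09, with an interval of -5.79% to 30.8% and adjusted p = 0.802 in limma. It was 0.04 without the first knockout array and 0.26 without the second. The authors' table gave 367.6 and 305.0 units in the wild-type samples against 410.3 and 372.5 in the Trpc6-/- samples, without overlap and with a ratio of 1.16.

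Esrrg, the ERR of tissues with many mitochondria, read 163 and 179 units in the wild-type samples against 162 and 153 in the Trpc6-/- samples. Its normalized values were 7.10 on both wild-type arrays and 7.11 and 6.98 in the knockout. This gave a log2 fold change of -0.05 ± 0.06, with an interval of -13.2% to 6.83% and adjusted p = 0.889 in limma, and without the second knockout array it was 0.01. Esrrb, best known from embryonic stem cells and trophoblast, read 92.4 and 106 units in the wild-type samples against 95.9 and 96.2 in the Trpc6-/- samples, 10.4 to 14.7 units above the limits. Its normalized values were 6.06 and 6.13 in the wild-type samples against 6.08 and 6.10 in the Trpc6-/- samples, a log2 fold change of -0.0024 ± 0.043 with an interval of -7.84% to 8.14%.

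Ppargc1a, the coactivator induced by exercise, cold and fasting, had a pair of probes. The brighter probe, which stood for the gene in the test, read 403 and 467 units in the wild-type samples against 443 and 448 in the Trpc6-/- samples. Its normalized values were 8.57 and 8.67 in the wild-type samples against 8.73 and 8.75 in the Trpc6-/- samples. The dimmer probe read 180.3 and 226 units in the wild-type samples against 222 and 245 in the Trpc6-/- samples, with normalized values of 7.27 and 7.50 in the wild-type samples against 7.64 and 7.79 in the Trpc6-/- samples. After normalization the knockout arrays lay above the wild-type arrays on both probes. The first wild-type array was then the lowest and the second knockout array the highest. Before normalization the spot medians of the genotypes overlapped on both probes. The second wild-type spot was the highest of the brighter probe and lay above the first knockout spot of the dimmer probe. On the log2 scale the fold change was 0.12 ± 0.05 on the brighter probe, with an interval of -0.80% to 19.5%, an unadjusted p of 0.0650 and an adjusted p of 0.756 in limma. On the dimmer probe it was 0.33 ± 0.10, with an unadjusted p of 0.0223 and an adjusted p of 0.732 in a limma fit of all 16999 kept probes. The probes share the same samples and gene, so they are not independent. The authors' table gave ratios of 1.15 and 1.42. Without the first wild-type array, the brighter probe's log2 fold change was 0.07. With the local background subtracted it was 0.31, where that background read 179 and 128 units beside the wild-type spots and 108 and 107 units beside the knockout spots.

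With Ppara, Ppargc1a was the other member whose groups did not overlap after normalization. Its promoter is shown for the TGACGT it holds on the opposite strand, 50 to 45 bases before the start. TGACGT was found in 1 of 17 member entries, or 5.88%, and in 6.47% of all promoters. It reads ACGTCA on the strand printed.
Ppargc1a promoter, chr5:51567726-51567975, minus strand: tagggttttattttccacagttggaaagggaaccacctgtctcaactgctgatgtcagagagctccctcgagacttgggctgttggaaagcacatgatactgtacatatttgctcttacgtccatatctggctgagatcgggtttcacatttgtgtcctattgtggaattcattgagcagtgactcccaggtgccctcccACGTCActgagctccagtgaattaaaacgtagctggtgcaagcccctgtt

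Ppargc1b, the related coactivator, read 305 and 330.2 units in the wild-type samples against 342 and 273 in the Trpc6-/- samples. Its normalized values of 8.13 and 8.12 in wild type lay between those of 8.34 and 7.97 in the knockout. The log2 fold change was 0.03 ± 0.13, with an interval of -19.5% to 29.2% and adjusted p = 0.984 in limma. It was -0.15 without the first knockout array, 0.21 without the second, and 0.63 after subtraction of the local background, which was 225 and 198 units beside the wild-type spots and 96.4 and 145 units beside the knockout spots. The part of this background in either coactivator's values was not tested.

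The groups did not overlap in 2 of 10 members, both higher in the knockout, and in 19.4% of all genes in that direction. In either direction 36.8% of all genes did not overlap. No member was lower without overlap, against 17.4% of all genes. The share of 2 in 10 is near the background and is no result about these genes as a group. By point estimate 6 members were above wild type and 4 below, where 51.1% of all genes were above, or 11130 genes above and 4825 below with 75th percentile scaling against 8151 and 7802 in the reported fit. The median log2 fold change of the members was 0.04, and that of all genes was 0.00. The first knockout array held the highest normalized value of 5 members, Ppara, Ppard, Esrra, Esrrg and Ppargc1b. For Esrrg it was 7.11 against 7.10 on the first wild-type array, and the highest spot median was on the second wild-type array. The share of all genes highest on the first knockout array was not counted, so this is no result about these genes.

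**Figure D2:**
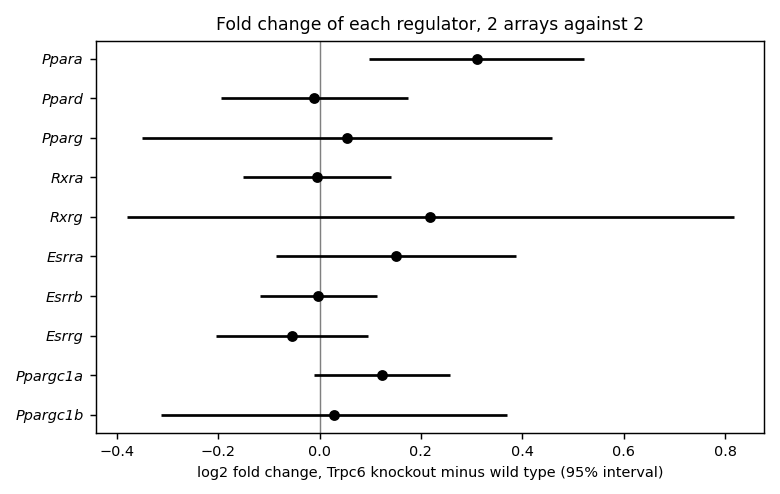
Log2 fold change of each regulator, knockout minus wild type (points), with its 95% interval from limma (lines), 2 arrays against 2. The interval of Ppara, 0.10 to 0.52, is above 0 before adjustment for the number of genes, and the intervals of the other 9 include 0.

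Genes known as PPAR targets were examined next, from a list of 34 entries of fatty acid uptake, activation, mitochondrial import, oxidation and uncoupling. Earlier results on these arrays had already shown fatty acid genes lower in the knockout, so their direction here is not independent evidence. Of the list, 29 genes had a probe and 27 were kept. Of these, 24 were below wild type and 3 above, where 48.9% of all genes were below. The groups did not overlap in 14 genes, all lower, against 17.4% of all genes. At an unadjusted p under 0.05 there were 9 lower and 0 higher, against 3.08% and 3.67% of all genes, and limma called none at an adjusted p under 0.05. The median log2 fold change was -0.09, or 5.83% below wild type, against 0.00 for all genes.

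Acot1, a cytosolic thioesterase that frees fatty acids from coenzyme A and a sensitive PPARalpha target, was at 7.42 and 7.46 in the wild-type samples against 7.09 and 6.95 in the Trpc6-/- samples, with a log2 fold change of -0.42 ± 0.06. Slc25a20, which carries acylcarnitines into mitochondria, was at 7.72 and 7.85 in the wild-type samples against 7.45 and 7.33 in the Trpc6-/- samples, at -0.39 ± 0.07. Both knockout arrays were below both wild-type arrays for each of these genes. Acot1 has a close paralog, Acot2, and whether the probe tells them apart is uncertain. Ech1, a dienoyl-CoA isomerase, was at 12.54 and 12.97 in the wild-type samples against 12.19 and 12.20 in the Trpc6-/- samples, at -0.56 ± 0.15, and its second wild-type array stood highest. Eci1, the enoyl-CoA isomerase of the same pathway, was at -0.22 ± 0.05. Unadjusted limma p-values of these 4 genes ran from 0.00161 to 0.0159, each with an adjusted p of 0.727. Acadm, the medium-chain acyl-CoA dehydrogenase, was at 13.31 and 13.41 in the wild-type samples against 13.08 and 13.19 in the Trpc6-/- samples, a log2 fold change of -0.22 ± 0.06.

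The other 9 targets without overlap were Cpt2, Decr1, Pex11a, Acot2, Ucp3, Fabp3, Hadha, Etfdh and Slc27a1, with log2 fold changes from -0.40 for Decr1 to -0.07 for Slc27a1. Fabp3 was at 14.97 on both wild-type arrays and 14.88 on both knockout arrays, values that quantile normalization sets by rank. In the remaining 13 targets the groups overlapped. Pdk4, the kinase that shuts down pyruvate dehydrogenase, was at 7.62 and 8.50 in the wild-type samples against 8.05 and 8.37 in the Trpc6-/- samples, at 0.15 ± 0.32. Angptl4, an inhibitor of lipoprotein lipase, was at 5.89 and 5.96 in the wild-type samples against 5.97 and 5.87 in the Trpc6-/- samples. That is about the level of Ppard, close to background, where the offset shrinks differences. Angptl4 and Cpt1a, the liver form of the carnitine transferase, each had a log2 fold change of -0.01. Plin2, a coat protein of lipid droplets, was at 0.01 ± 0.11. Pdk4, Angptl4, Cpt1a and Plin2 overlapped between the groups.

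The count of 24 lower of 27 was 22 to 24 when any 1 array was left out, 22 with 75th percentile scaling, 25 with median scaling and 21 in the authors' table. It was 14 after subtraction of the local background, with 5 of them at an unadjusted p under 0.05. The local background followed the spot signal, with a correlation of log2 values across probes of 0.928 to 0.965. By the authors' values, there were 3 lower at an unadjusted p under 0.05.

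The Acadm promoter is shown because, of the 9 genes with an unadjusted p under 0.05, it is the one with a half-site found in its entry, here read on the opposite strand as TGACCT. Of 30 promoter entries of listed targets, 7 hold AGGTCA, or 23.3%, and 0 hold the direct repeat or the ERR element, which are in 0.0335% and 0.387% of all promoters.
Acadm promoter, chr3:153944644-153944893, minus strand: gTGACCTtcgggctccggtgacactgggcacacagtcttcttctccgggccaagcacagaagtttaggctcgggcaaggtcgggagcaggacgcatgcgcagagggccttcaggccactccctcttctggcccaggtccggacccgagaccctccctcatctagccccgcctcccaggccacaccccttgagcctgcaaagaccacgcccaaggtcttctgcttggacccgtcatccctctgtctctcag

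**Figure D3:**
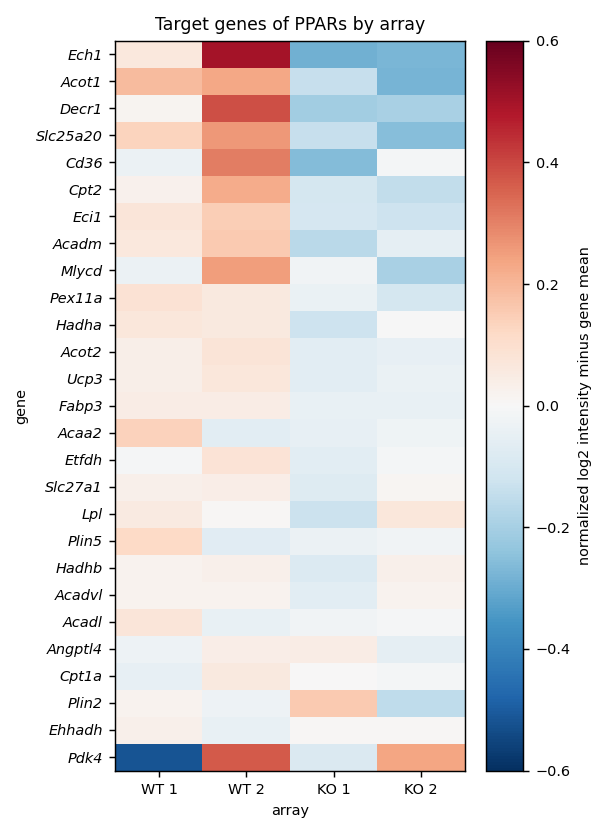
Normalized log2 intensity minus the gene's mean over the 4 arrays (colour) for the 27 kept PPAR target genes (rows, ordered by fold change) on the wild-type (WT) and knockout (KO) arrays (columns). In 14 rows both WT columns lie above both KO columns, and the deepest red in most of the upper rows is on the second WT array, with Ech1, at a log2 fold change of -0.56, in the top row and Pdk4, at 0.15, in the bottom row.

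Known targets of the ERRs and PGC-1, here genes of the citric acid cycle, the respiratory chain and mitochondrial fusion, went both ways. This list and the PPAR target list share no gene, although PGC-1 acts on both receptor families. Any contrast between the lists therefore depends on which list a gene was put on. Of 32 entries 31 were kept. In the reported fit 19 were higher, 10 lower and 2 equal, and the count of lower genes was 21 with median scaling and 18 with the local background subtracted. The median log2 fold change was 0.02, and -0.02 with median scaling. The 2 equal genes were Mb, at 15.73 on every array, and Cox4i1, at 14.55 and 14.47 in each genotype. Quantile normalization sets values by rank, so these are equal ranks and not a measured equality of signal. Cs, citrate synthase, was at 12.05 and 11.95 in the wild-type samples against 12.25 and 12.29 in the Trpc6-/- samples, a log2 fold change of 0.27 ± 0.05 with an unadjusted p of 0.00417. Idh3a, a subunit of isocitrate dehydrogenase, was at 0.20 ± 0.07. Ckmt2, the mitochondrial creatine kinase of muscle, was at -0.14 ± 0.04 and Cox8b, a muscle form of a complex IV subunit, at -0.19 ± 0.07. Perm1, a muscle protein induced by PGC-1 and ERR, was at -0.02. All of these had an adjusted p of at least 0.727 in limma.

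Coactivators and corepressors that bind these receptors were kept for 21 of 23 entries, 16 above and 5 below wild type, with a median log2 fold change of 0.05. At an unadjusted limma p under 0.05 there were 2 higher and 1 lower, against 3.67% higher and 3.08% lower of all genes. By the authors' values there were 0 higher and 0 lower. Nr0b2, the orphan receptor SHP that represses other receptors, was at 7.22 and 7.31 in the wild-type samples against 7.46 and 7.47 in the Trpc6-/- samples, at 0.20 ± 0.05. Tbl1x and Tbl1xr1, paired subunits of the corepressor complex, were at -0.11 ± 0.04 and 0.12 ± 0.04. Tbl1xr1 was at 6.06 and 6.10 in the wild-type samples against 6.17 and 6.23 in the Trpc6-/- samples. That is about the level of Rxra, close to background, where the offset shrinks differences. Ncoa6, a coactivator, was at 0.10 ± 0.04. After subtraction of the local background 9 of this list were higher and 12 lower.

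Of other nuclear receptors that pair with RXR or bind like sites, 18 of 19 entries were kept, 11 higher and 7 lower, and those at an unadjusted p under 0.05 numbered 0 higher and 3 lower, against 3.67% and 3.08% of all genes. With the local background subtracted 6 were higher and 12 lower, and 1 was lower at an unadjusted p under 0.05. In the reported fit the 3 were Nr1d2 and Nr1d1, the clock repressors REV-ERBbeta and REV-ERBalpha, and Nr1h3, the oxysterol receptor LXRalpha. Nr1d1 was at 6.43 and 6.27 in the wild-type samples against 6.02 and 5.92 in the Trpc6-/- samples, a log2 fold change of -0.38 ± 0.07. Its knockout values were about as low as those of Ppard, close to background, where the offset shrinks differences. Nr1d2 was at -0.25 ± 0.04 and Nr1h3 at -0.23 ± 0.04. Rxrb, the RXR not among the members, was at 6.78 and 6.77 in the wild-type samples against 6.86 and 6.85 in the Trpc6-/- samples, at 0.08 ± 0.04. In this list the adjusted p was at least 0.727 for every gene.

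Genes that transcribe and copy mitochondrial DNA, downstream of PGC-1 through nuclear respiratory factors, were kept for 14 of 14 entries, with 10 higher and 4 lower and 4 higher after subtraction of the local background. Twnk, the mitochondrial helicase, was at 0.22 ± 0.07 with an unadjusted p of 0.0277, while Tfb2m, a mitochondrial transcription factor, was at -0.35 ± 0.15, Mterf3 at -0.21 ± 0.12 and Ssbp1, the single-strand binding protein, at -0.10 ± 0.04. Tfam, which packages mitochondrial DNA, was at 0.08 ± 0.06. Known inducers of Ppargc1a were kept for 15 of 16 entries, 7 higher and 8 lower. At an unadjusted limma p under 0.05 there were 2 higher and 1 lower, against 3.67% and 3.08% of all genes. By the authors' values there were 0 higher and 0 lower. Mef2a, a muscle transcription factor, was at 8.69 and 8.60 in the wild-type samples against 8.35 and 8.41 in the Trpc6-/- samples, at -0.26 ± 0.05. Mapk14, the kinase p38alpha, was at 0.15 ± 0.04. Ppp3ca, a catalytic subunit of calcineurin, was at 0.19 ± 0.06, and Crtc3, a coactivator of CREB, at -0.17 ± 0.07. Every gene named in this paragraph had an adjusted p of at least 0.727 in limma.

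**Figure D4:**
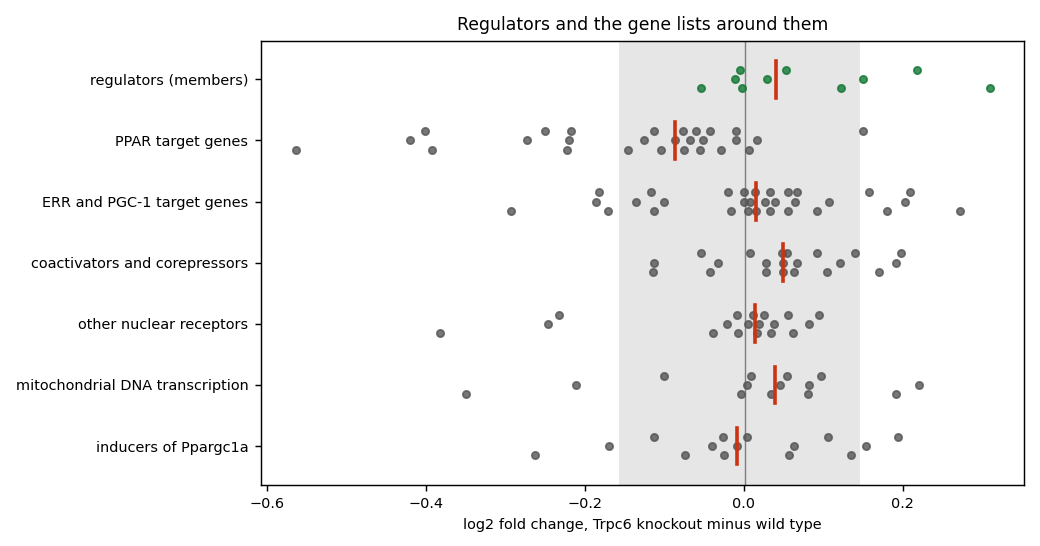
Log2 fold change, knockout minus wild type, of the 10 regulators (top) and of the kept genes of 6 lists around them (points), with the list median as a vertical bar. The grey band spans the 5th to 95th percentile of all 15955 genes, -0.16 to 0.15, and the median bar of the PPAR targets is at -0.09, the one farthest from 0.

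**Figure D5:**
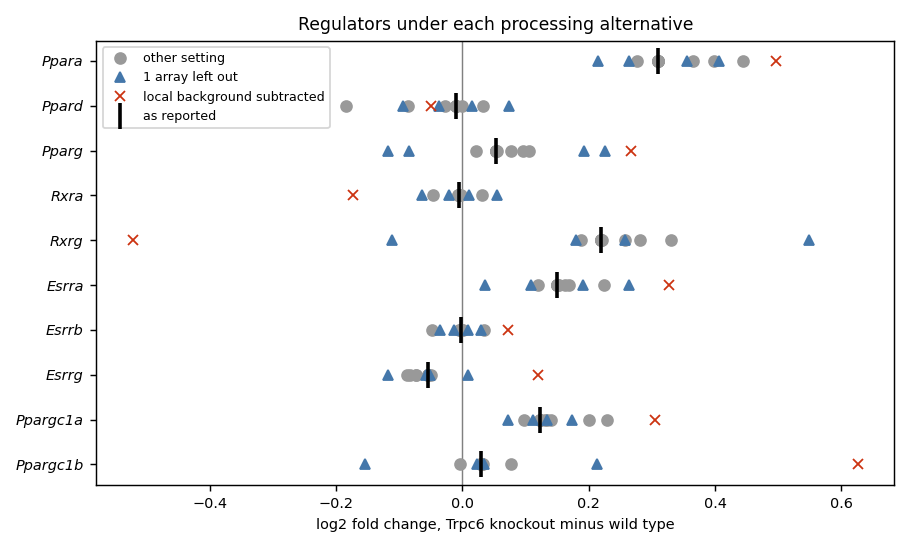
Log2 fold change of each regulator as reported (black bar) and under 16 processing alternatives, with arrays left out as triangles, local background subtraction as crosses and the other settings as circles. Ppara, Esrra and Ppargc1a keep their sign throughout, and Rxrg spans -0.52 to 0.55. Settings of filter, variance model and block cannot move a point from the reported value.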

How the data were processed

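Cy5-labelled amplified RNA was read on Toray oligonucleotide arrays, 1 array per sample, per the labels' protocols. Per the file headers, the deposited scanner files give a median intensity for every spot and another for its surroundings, at 635 nm and joined from 3 scanner gains. A second deposited table holds intensity values that the authors had processed. Against the spot medians of its array each of its columns was a straight line, with 78.4 to 87.7 units subtracted and a scale of 0.807 to 1.02 that set its median to 25, so scale and direction are known, while the rule for its empty cells is not. Symbols came from the platform annotation, with 1 symbol for 20690 of 23473 gene probes and none for 2783, and updating them by gene ID changed 0.

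Here limma 3.58.1 (R 4.3.3) was used to apply normexp to the spot medians, with an offset of 50 and no local background, and values were quantile normalized on the log2 scale. Probes above the background limit on at least 2 arrays were kept, and a gene was its brightest kept probe. Groups were compared with lmFit and eBayes without covariates, two-sided, with Benjamini-Hochberg adjustment over 15955 genes, 2 residual and 2.49 prior degrees of freedom. The alternatives changed background, normalization, filter, input (the authors' values, floored at 2.3 units), probe choice, variance model and covariates, or left out 1 array. Named were the members, Trpc6 and up to 4 genes per list by p. Acadm, Pdk4, Angptl4, Cpt1a, Plin2, Perm1, Tfam, Mb, Cox4i1, the other targets without overlap and the cell markers named were chosen after their values were seen. Members and lists were chosen with earlier results of these data known. Set tests were not run.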

Additional observations from a re-analysis of the deposited data

How the results depend on the processing

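Over 16 alternatives, Ppara, Esrra and Ppargc1a kept their sign, and no member had an adjusted limma p under 0.05, the smallest being 0.142. Of 160 member values, 19 turned sign, and the cause was not tested. Both counts include settings that cannot change a member's fold change. These are the changes of filter, of variance model and of block, and the fit of every kept probe. Averaging a gene's probes can change it for Ppargc1a alone. The unchanged signs under those settings are therefore no test of the sign. With 75th percentile scaling Esrrb, Ppard and Rxra were at 0.034, 0.033 and 0.031, where the median of all genes was 0.04. With median scaling Esrrb and Ppargc1b were at 6.8e-04 and -0.0034. With the local background subtracted Esrrb, Esrrg and Rxrg were at 0.073, 0.12 and -0.52. Leaving out 1 array gave ranges of -0.035 to 0.030 for Esrrb, -0.12 to 0.0093 for Esrrg, -0.095 to 0.074 for Ppard, -0.12 to 0.23 for Pparg, -0.15 to 0.21 for Ppargc1b, -0.064 to 0.054 for Rxra and -0.11 to 0.55 for Rxrg; 2 arrays against 1 assumes that the lone array varies like the others. Limma called 0 genes in the reported fit, with 585 higher and 491 lower at an unadjusted p under 0.05, and 0 to 1 with 1 array left out, the 1 without the second wild-type array. Those unadjusted counts were 217 and 462 in the authors' table, 1143 and 1201 without the first wild-type array and 250 and 194 without the second knockout array.

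The alternatives for the lists were chosen after seeing the data. The 24 lower PPAR targets were 14 with the local background subtracted, and the 9 at an unadjusted p under 0.05 were 3 in the authors' table, 5 with the local background subtracted, 4 with an offset of 0, and 4 to 10 with 1 array left out. With the replicate number as a block, limma called 0 genes, and Ppara, at 0.31, had an unadjusted p of 0.0188. Each replicate number holds 1 array of each genotype, so the block cannot change a fold change or its sign. Deviations of same-numbered samples correlated at 0.0967 across genes over 2 pairs, which does not settle whether the numbers pair the samples; under the block Esrra had an unadjusted p of 0.0579 against 0.158 without it. Low signal over background limits Ppard, Rxra and Esrrb, and likewise Angptl4, Tbl1xr1 and the knockout values of Nr1d1.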
